A study of Mus musculus with 6 samples.

Results

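The genes described here build the cornified envelope and carry out the last steps of keratinocyte differentiation. They were taken from a list of 43 mouse genes of 8 kinds: envelope precursors and plakins, fused-type S100 proteins, transglutaminases, non-kallikrein proteases, kallikreins, protease inhibitors, barrier lipid genes, and secreted or other late proteins. A gene was measured where the platform annotation gave an array transcript cluster, a set of probes summarised to 1 value, to that gene alone. Of the 43 genes, 31 had such a cluster among the 23332 clusters on the array. Flg and Hrnr shared 1 cluster and Klk10 and Klk11 another, so these 4 were not given values. The other 8, Flg2, Tchh, Klk5, Klk13, Klk14, Spink5, Pnpla1 and Krtdap, matched no cluster and were not analysed here.

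The study compared 3 immortalised mouse keratinocyte lines to ask which transcripts depend on integrin α3β1, a laminin receptor of basal keratinocytes. The wild-type line, MK116, came from wild-type newborn mice, and the α3-null line, MK546, from newborn mice lacking integrin α3. The rescue line was made from MK546 by stable transfection with human α3. All 3 lines carried SV40 large T antigen and were grown at 33 degrees C on denatured rat tail collagen, in medium with 0.05 mM calcium chloride, hydrocortisone, insulin, interferon-γ at 10 units/ml and EGF at 10 ng/ml. Each kind of cell was 1 line. A difference between the wild-type and null lines therefore cannot be told apart from any other difference between lines of separate mice, and a difference between the rescue line and its parent cannot be told apart from selection or clonal drift. Each line had 2 arrays, 6 in all, which the submitters call biological replicates. No label says whether the 2 came from separately grown cultures, and p-values measure only the spread between these arrays.

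As background, keratinocytes leaving the basal layer stop dividing, switch keratins and then lay down precursors under the plasma membrane. Transglutaminases crosslink these precursors into an insoluble envelope, lipids are attached to its outer face, and proteases process filaggrin and cut the corneodesmosomes so that dead cells are shed. Many of the precursors lie together in the epidermal differentiation complex. Cultured keratinocytes kept in low calcium stay largely undifferentiated, and raising calcium starts the programme.

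Values are PLIER intensities, an arbitrary linear brightness scale. A difference is given on the scale log2(intensity + 16), so it understates the change of dim genes, while a fold is the ratio of mean intensities. Tests are limma's moderated test across all 23332 clusters with Benjamini-Hochberg adjustment, and a gene is called where the adjusted p is under 0.05. Means carry the SD over 2 arrays and differences their SE. Clusters differ in probe brightness, so each gene is compared only with itself across lines. Median intensity lay between 96.6 and 108 on the 6 arrays, and arrays correlated at 0.990 to 0.991 within lines and 0.966 to 0.977 between lines over all clusters on the log2 scale. Itga3 gave 6364 and 6287 in wild-type cells, 997 and 907 in null cells, and 1218 and 1221 in rescue cells, so the mouse probes followed the labels for the null line. How well these probes read human α3 is not known. All 10 measured basal keratinocyte markers exceeded the dim reference given below on both arrays of every line. The summed intensity of these basal markers was 41188 to 42024 in the wild-type line, 43989 to 45066 in the null line and 38334 to 39513 in the rescue line.

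The module was lower in the null line for many of its members, but not for all. In the null line against wild type, 13 of the 31 measured members fell and 4 rose. That is 54.8% of the members, beside 15.3% of all clusters called in this comparison, of which 8.49% of clusters were higher and 6.84% lower. The 4 that rose were Sprr3, Cst6, Abca12 and Sbsn. The median member difference was -0.32, beside -0.01 over all clusters. Many members were also below their wild-type level in the rescue line. From null to rescue, 3 members rose and 6 fell, 29.0% of members beside 15.4% of clusters (9.75% higher, 5.62% lower). In the rescue line against wild type, 14 members were lower and 2 higher, 51.6% of members beside 15.4% of clusters (10.4% higher, 5.05% lower), and the median member difference was -0.44 beside 0.03 over all clusters. Over the 14860 genes with a cluster of their own, as each member has, 19.6%, 18.5% and 18.5% were called in the 3 comparisons. Brighter clusters were called more often. Of the 11666 at or above the median cluster, fitted alone, 2421 were higher and 1778 lower in the null line. From null to rescue these counts were 2641 and 1653. Each line enters 2 of the 3 comparisons, so the comparisons share arrays and are given side by side without being counted as separate evidence.

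Among the members called lower in the null line were several large differences. With a log2 difference of at least 1 added to the test, 9 members were lower and 1 higher in the null line, beside 1.83% and 0.883% of all clusters. The corresponding counts were 3 lower and 1 higher from null to rescue, beside 0.566% and 1.77%, and 7 lower and 0 higher in the rescue line against wild type, beside 1.37% and 1.8%, where 2 members were higher by the limma test alone. Groups of 2 arrays often fail to overlap by themselves: this held for 56.3%, 55.6% and 57.6% of all clusters in the 3 comparisons. Among the members it held for 7 higher and 18 lower in the null line (28.1% and 28.2% of clusters), 7 and 16 from null to rescue (31.2% and 24.4%), and 6 and 19 in the rescue line against wild type (32.8% and 24.8%).

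These counts depended on single arrays in places. In each fit named here, fewer of all clusters were called too, in both directions, and 1 line was left with a single array. Whether the members lost calls more often than all clusters was not tested. Without the second wild-type array, 8 rather than 14 members were lower in the rescue line than in wild type. Without the first null array, 3 rather than 6 members fell from null to rescue. The small counts of higher members moved too: the 4 that rose in the null line became 2 without either wild-type array and 1 without either null array. The 3 that rose from null to rescue became 1 without either wild-type array, the second null array or the first rescue array. The 2 that were higher in the rescue line than in wild type became 1 without the second wild-type array, and 0 without the first wild-type array or either rescue array.

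**Figure D1:**
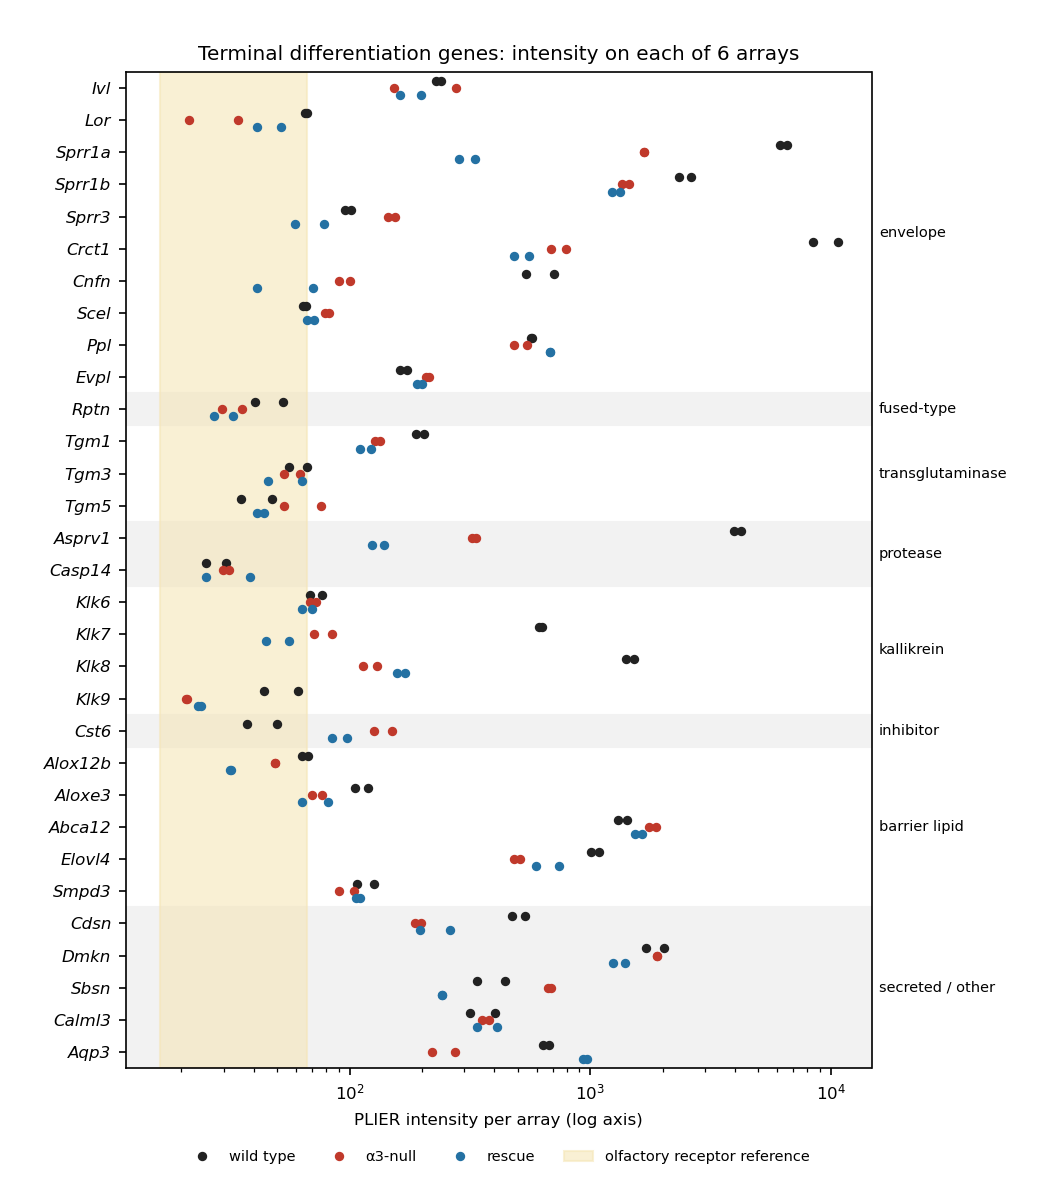
PLIER intensity (log axis) of the 31 measured members on each of the 6 arrays, grouped by role, with wild-type arrays in black, α3-null arrays in red and rescue arrays in blue. The shaded band runs from the lowest median to the highest 95th percentile of olfactory receptor clusters over the 6 arrays, 16.3 to 66.3; Sprr1a, Crct1, Cnfn, Asprv1, Klk7 and Klk8 have both wild-type arrays well to the right of the other 4.

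Several members were dim in all lines. As a rough reference for dim signal, 718 clusters of olfactory receptors, genes best known from the olfactory epithelium, had a 95th percentile of 60.5 to 66.3 by array. Of the members, 20 exceeded it on all 6 arrays, 8 on some arrays and 3 on none. The 3 were Rptn, Casp14 and Klk9. Lor exceeded it on 2 arrays, Tgm3 and Alox12b on 2, Tgm5 on 1, Klk7 and Cst6 on 4, and Sprr3 and Cnfn on 5. Differences of these genes rest on dim values in at least 1 line.

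The largest differences from wild type among the envelope genes were in Sprr1a, Crct1 and Cnfn. Of 10 measured envelope genes, 5 fell and 1 rose in the null line, and 2 fell and 1 rose from null to rescue. In the rescue line 4 were lower than in wild type. The shares called were 60%, 30% and 40% of the 10, beside 15.3%, 15.4% and 15.4% of all clusters. The small proline-rich genes Sprr1b, Sprr3 and Sprr1a are neighbours on mouse chromosome 3 and encode flexible crosslinking bridges of the envelope. They followed 3 different courses across the lines, so their promoters are shown together for comparison, from RefSeq on GRCm38.p6, with 250 bases before and 50 after the transcript start, 5′ to 3′ on the gene's strand. Capitals mark TGANTCA and TATAAA, the TATA box core, searched on both strands. TGANTCA includes TGAGTCA and TGACTCA, the core forms bound by AP-1 factors, and also admits TGAATCA and TGATTCA. The windows are chr3:92438730-92439029 on the minus strand for Sprr1b, chr3:92458671-92458970 on the minus strand for Sprr3 and chr3:92485832-92486131 on the minus strand for Sprr1a.
Sprr1b promoter: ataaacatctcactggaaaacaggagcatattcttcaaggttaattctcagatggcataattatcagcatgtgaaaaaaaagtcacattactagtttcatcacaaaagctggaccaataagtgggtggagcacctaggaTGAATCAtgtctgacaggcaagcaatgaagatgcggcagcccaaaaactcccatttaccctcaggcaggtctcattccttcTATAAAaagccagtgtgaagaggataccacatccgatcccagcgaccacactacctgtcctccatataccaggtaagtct
Sprr3 promoter: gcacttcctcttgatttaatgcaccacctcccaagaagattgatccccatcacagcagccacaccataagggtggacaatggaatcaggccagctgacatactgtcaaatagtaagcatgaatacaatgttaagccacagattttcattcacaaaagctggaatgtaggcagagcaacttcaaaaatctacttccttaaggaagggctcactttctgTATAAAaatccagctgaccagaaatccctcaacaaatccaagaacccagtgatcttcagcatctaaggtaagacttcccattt
Sprr1a promoter: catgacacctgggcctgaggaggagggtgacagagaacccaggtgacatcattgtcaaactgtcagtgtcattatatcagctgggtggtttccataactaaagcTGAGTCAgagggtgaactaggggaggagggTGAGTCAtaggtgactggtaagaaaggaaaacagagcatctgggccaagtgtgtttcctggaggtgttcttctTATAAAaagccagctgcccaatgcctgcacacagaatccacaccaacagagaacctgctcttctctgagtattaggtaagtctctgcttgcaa
TGANTCA was found 2 times in the Sprr1a window, as TGAGTCA 146 and 116 bases before the start. It was found 1 time in the Sprr1b window, as TGAATCA 111 bases before the start. It was not among the letters of the Sprr3 window. TATAAA lay 43 bases before the start in Sprr1a, 30 in Sprr1b and 33 in Sprr3. Of 32851 RefSeq promoters of this length, 7.81% held TGANTCA and 13.6% held TATAAA. By gene, these shares were 8.97% and 15.7% of 27025 genes, and each motif was found for 8 of the 24 members that had a promoter in the table. For Sprr1b and Rptn, TGANTCA was met only as TGAATCA and TGATTCA, not as an AP-1 core form. The motifs and windows were picked after the expression values were seen, and a match is a description of letters only.

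Sprr1a fell at both steps. It read 6144 and 6603 in wild type, 1674 and 1676 in the null line, and 285 and 332 in the rescue line. The 3 lines did not overlap, with wild type highest and rescue lowest. Its mean intensity in the null line was 26.3% of wild type (log2 difference -1.92 ± 0.09, limma adjusted p = 1.09e-04) and a further 5.43-fold lower in the rescue line than in its null parent (-2.38 ± 0.09, limma adjusted p = 1.08e-04). Against wild type, the rescue line was 20.6-fold lower (-4.30 ± 0.09, limma adjusted p = 5.93e-06).

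Sprr1b and Sprr3 each took another course. Sprr1b read 2339 and 2630 in wild type, 1350 and 1444 in the null line, and 1238 and 1332 in the rescue line. It was 1.78-fold lower in the null line (-0.82 ± 0.09, limma adjusted p = 0.00258) and 1.93-fold lower in the rescue line than in wild type (-0.94 ± 0.09, limma adjusted p = 0.00162). Its difference from null to rescue was -0.12, with a 95% interval of -0.33 to 0.09 (limma adjusted p = 0.427). Sprr3 read 101 and 95.7 in wild type, 154 and 145 in the null line, and 78.1 and 59.3 in the rescue line. It was the one envelope precursor that rose in the null line (0.53 ± 0.13, limma adjusted p = 0.0477), and it then fell 2.17-fold from null to rescue (-0.97 ± 0.13, limma adjusted p = 0.00803). The rise of Sprr3 depended on every array of both lines: it lost its call without any one of the 4, with limma adjusted p from 0.14 to 0.201, and its fall from null to rescue lost its call without the first null array (adjusted p = 0.056). Small proline-rich genes are close copies of each other, and probes of one may read another.

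Crct1, a small cysteine-rich protein gene in the same complex, and Cnfn, which encodes the envelope protein cornifelin, fell furthest in the null line among the envelope genes. Crct1 read 8471 and 10685 in wild type, 796 and 690.0 in the null line, and 559 and 484 in the rescue line. Both wild-type arrays stood far above the other 4. Crct1 was 12.9-fold lower in the null line (-3.65 ± 0.14, limma adjusted p = 5.33e-05) and 18.4-fold lower in the rescue line than in wild type (-4.15 ± 0.14, limma adjusted p = 3.18e-05). Cnfn read 704 and 542 in wild type, 89.9 and 100.2 in the null line, and 70.7 and 41.4 in the rescue line. It was 6.56-fold lower in the null line (-2.51 ± 0.22, limma adjusted p = 0.00137) and 11.1-fold lower in the rescue line (-3.17 ± 0.22, limma adjusted p = 5.79e-04). Between null and rescue neither passed the test, at -0.50 (95% interval -0.84 to -0.16) for Crct1 and -0.65 (-1.19 to -0.11) for Cnfn. Centring arrays on their median gave both a call there (limma adjusted p = 0.0346 and 0.0468). So did fits of only the clusters at or above the median cluster (0.0231 and 0.0411) or with 1 gene symbol (0.0218 and 0.037).

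Loricrin, a major precursor late in differentiation, and involucrin, an early precursor, gave a call and no call in turn in the null line, and the contrast between them was not tested. Lor was dim, at 65.0 and 66.5 in wild type, 34.2 and 21.5 in the null line, and 41.4 and 51.8 in the rescue line. It fell in the null line (-0.92 ± 0.18, limma adjusted p = 0.0224), a call lost without the first or second wild-type array or the second null array (adjusted p = 0.11, 0.111 and 0.0873). Its difference from null to rescue was 0.52 (95% interval 0.08 to 0.96, limma adjusted p = 0.113). Ivl read 229 and 241 in wild type, 153 and 278 in the null line, and 198 and 162 in the rescue line. The 2 null arrays lay on either side of the wild-type arrays, and the difference of -0.17 had a 95% interval of -0.79 to 0.46 (limma adjusted p = 0.75).

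The plakins and sciellin, which tie the envelope to the cell margin and desmosomes, differed little in size. Ppl, encoding periplakin, read 570.2 and 572 in wild type, 547 and 482 in the null line, and 682 and 684 in the rescue line. It rose from null to rescue (0.40 ± 0.08, limma adjusted p = 0.0247), but this call was lost without 5 of the 6 arrays, all but the first null array, with adjusted p of 0.0618 to 0.1. Evpl, encoding envoplakin, was not called in any comparison and lay between 162 and 214 on all arrays. Scel lay between 64.2 and 82.4 and was not called either. Repetin, the 1 measured member of 5 listed fused-type S100 proteins, lay between 27.3 and 52.7 and gave no call.

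Among the crosslinking enzymes, Tgm1, the membrane-bound transglutaminase of the envelope, fell modestly. It read 204 and 189 in wild type, 134 and 127 in the null line, and 122 and 110.0 in the rescue line. Wild type was above both other lines without overlap. Tgm1 was 1.51-fold lower in the null line (-0.54 ± 0.10, limma adjusted p = 0.0174) and 1.69-fold lower in the rescue line than in wild type (-0.69 ± 0.10, limma adjusted p = 0.00838). The first call was lost without any one of the 4 arrays compared (adjusted p 0.0734 to 0.114) and the second without the first wild-type array (0.0602). The difference from null to rescue was -0.15 (95% interval -0.39 to 0.09). Tgm3 and Tgm5, cytosolic transglutaminases, were dim, between 35.5 and 75.9, and were not called in any comparison.

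Asprv1, the retroviral-like aspartic protease that processes profilaggrin, had the lowest adjusted p of the members in 2 of the 3 comparisons, the null and the rescue line against wild type. It read 3974 and 4220 in wild type, 323 and 335 in the null line, and 124 and 139.5 in the rescue line. The lines did not overlap, and each step went down. Asprv1 was 12.5-fold lower in the null line (-3.58 ± 0.08, limma adjusted p = 1.1e-05), 2.49-fold lower in the rescue line than in its parent (-1.22 ± 0.08, limma adjusted p = 7.6e-04) and 31.0-fold lower in the rescue line than in wild type (-4.80 ± 0.08, limma adjusted p = 4.32e-06). Its promoter, shown because Asprv1, like Sprr1a, fell at both steps but lies on another chromosome, spans chr6:86627924-86628223 on the plus strand of GRCm38.p6 (RefSeq).
Asprv1 promoter: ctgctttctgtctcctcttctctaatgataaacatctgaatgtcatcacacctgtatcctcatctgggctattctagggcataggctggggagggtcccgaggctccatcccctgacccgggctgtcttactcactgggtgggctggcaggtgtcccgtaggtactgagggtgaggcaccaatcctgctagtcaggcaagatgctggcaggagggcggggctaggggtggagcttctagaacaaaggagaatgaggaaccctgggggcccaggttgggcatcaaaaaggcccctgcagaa
Neither motif was found in this window. Casp14, the caspase that breaks down filaggrin, read 25.2 to 38.5 on all arrays, below the dim reference. Its null difference was 0.09 (95% interval -0.34 to 0.52).

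Kallikreins are secreted serine proteases that cleave corneodesmosomes at the skin surface, and 3 of the 4 measured ones fell in the null line. That is 75% of the 4, beside 15.3% of all clusters. Klk7, which encodes the chymotrypsin-like stratum corneum enzyme, read 628 and 615 in wild type, 71.1 and 84.3 in the null line, and 56.2 and 44.8 in the rescue line. Klk8, a trypsin-like kallikrein, read 1527 and 1410 in wild type, 114 and 130.0 in the null line, and 169 and 157 in the rescue line. For both, the wild-type arrays stood far above the other 4. Klk7 was 8.00-fold lower in the null line (-2.77 ± 0.12, limma adjusted p = 9.71e-05) and 12.3-fold lower in the rescue line than in wild type (-3.27 ± 0.12, limma adjusted p = 5.04e-05). Klk8 was 12.1-fold lower in the null line (-3.43 ± 0.09, limma adjusted p = 1.75e-05) and 8.99-fold lower in the rescue line (-3.05 ± 0.09, limma adjusted p = 2.38e-05). Klk9 was dim, at 61.1 and 44.1 in wild type, 21.0 and 21.0 in the null line, and 24.2 and 23.4 in the rescue line, and was called lower in both lines than in wild type (limma adjusted p = 0.0178 and 0.0278). Klk6 lay between 63.3 and 76.6 on all arrays, with a null difference of -0.03 (95% interval -0.31 to 0.24).

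From null to rescue, Klk7 and Klk8 were called in opposite directions, by small amounts. Klk7 fell 1.54-fold (-0.50 ± 0.12, limma adjusted p = 0.0476), and Klk8 rose (0.38 ± 0.09, limma adjusted p = 0.0467). Leaving out any one of the 6 arrays ended both calls, with adjusted p of 0.0611 to 0.192 for Klk7 and 0.0729 to 0.181 for Klk8. The Klk9 calls ended without the first wild-type array or either null array for the null line (adjusted p 0.0835 to 0.0956), and without any one of the 6 arrays for the rescue line (0.0502 to 0.122).

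The cysteine protease inhibitor cystatin M/E, encoded by Cst6, rose in the null line, where the called members among the proteases fell. Cst6 read 37.4 and 49.7 in wild type, 126 and 151 in the null line, and 97.4 and 84.3 in the rescue line. Wild type was lowest, within the dim range, and the lines did not overlap. Cst6 rose in the null line (1.38 ± 0.15, limma adjusted p = 0.00327) and was higher in the rescue line than in wild type (0.85 ± 0.15, limma adjusted p = 0.0181). The latter call was lost without the first wild-type array or either rescue array (adjusted p 0.0523 to 0.0911). The decrease from null to rescue was not called (-0.53, 95% interval -0.90 to -0.15, limma adjusted p = 0.0723). It was called with quantile normalization, with median centring and over clusters with 1 gene symbol (0.0387, 0.0414 and 0.0201).

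Barrier lipid genes were mixed. Of 5 measured, Elovl4 fell and Abca12 rose in the null line. None was called from null to rescue, where 2 had an unadjusted p under 0.05 in limma. Elovl4 and Alox12b were lower in the rescue line than in wild type. The shares called were 40%, 0% and 40% of the 5, beside 15.3%, 15.4% and 15.4% of all clusters. Elovl4, the elongase of very long chain fatty acids for acylceramides, read 1092 and 1011 in wild type, 481 and 511 in the null line, and 741 and 598 in the rescue line. The rescue arrays lay between the other lines. Elovl4 was 2.12-fold lower in the null line (-1.06 ± 0.11, limma adjusted p = 0.00285) and 1.57-fold lower in the rescue line than in wild type (-0.65 ± 0.11, limma adjusted p = 0.0167). Its null to rescue difference was 0.41 (95% interval 0.14 to 0.69, limma adjusted p = 0.0624). That difference was called over clusters at or above the median cluster and over clusters with 1 gene symbol (0.024 and 0.0241). The rescue call was lost without either wild-type array (adjusted p = 0.0976 and 0.0776), while the null to rescue difference was called without the second rescue array (0.0285).

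Abca12, the lipid transporter of lamellar bodies, read 1307 and 1428 in wild type, 1750 and 1871 in the null line, and 1535 and 1643 in the rescue line. It rose in the null line (0.40 ± 0.08, limma adjusted p = 0.0217), a call lost without any one of the 4 arrays compared (0.0692 to 0.141). Alox12b and Aloxe3 encode lipoxygenases that act in sequence on the acylceramide, and are adjacent genes. Alox12b read 67.1 and 63.2 in wild type, 48.9 and 49.1 in the null line, and 32.2 and 31.8 in the rescue line, and was 2.03-fold lower in the rescue line than in wild type (-0.76 ± 0.11, limma adjusted p = 0.00977). That call was lost without either wild-type array (0.0638 and 0.0594). Aloxe3 read 105 and 119.7, 70.1 and 76.7, and 81.4 and 63.1 in the same order of lines, with differences of -0.52 (null) and -0.55 (rescue) from wild type that narrowly missed the threshold (limma adjusted p = 0.0592 and 0.0509). Smpd3, a neutral sphingomyelinase gene, lay between 90.7 and 126 and was not called.

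**Figure D2:**
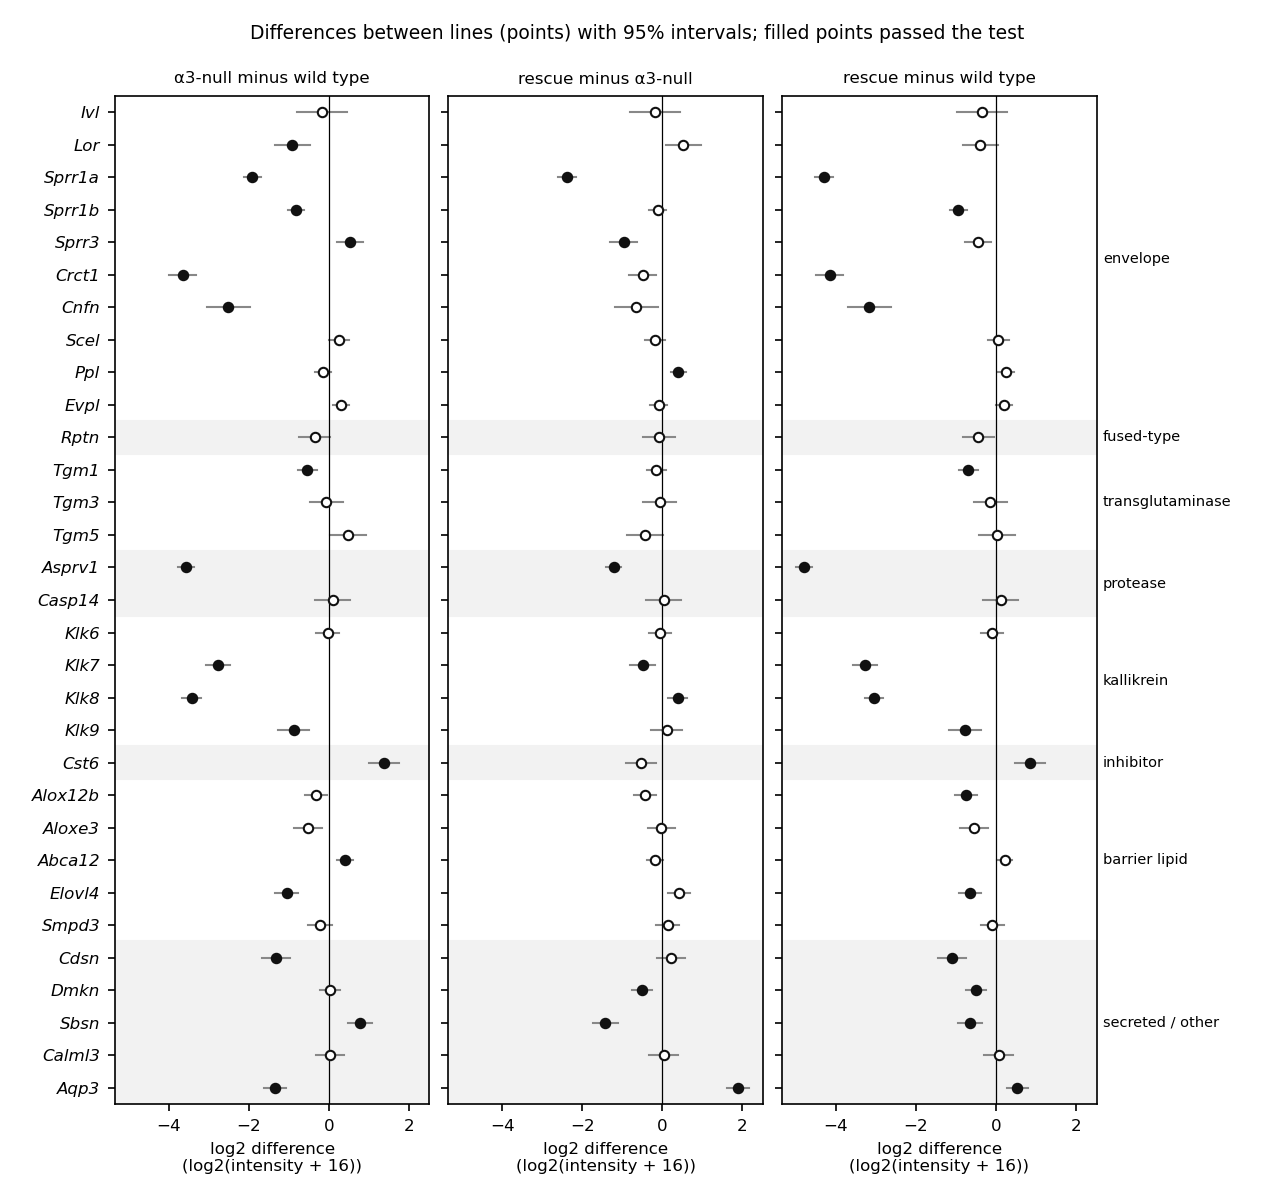
Log2 difference (log2(intensity + 16) scale) of each of the 31 members in the 3 comparisons, with limma's unadjusted 95% interval; filled points passed the test. Asprv1 (-3.58, -1.22 and -4.80) and Sprr1a (-1.92, -2.38 and -4.30) lie left of 0 in all 3 panels, and Aqp3 changes side (-1.35, 1.88 and 0.53).

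Aqp3 was the member that rose most from null to rescue. It encodes aquaporin 3, the water and glycerol channel of basal and lower epidermal layers. Aqp3 read 636 and 671 in wild type, 220.4 and 275 in the null line, and 972 and 933 in the rescue line. The 3 lines did not overlap, and the rescue line was highest. Aqp3 was 2.64-fold lower in the null line (-1.35 ± 0.11, limma adjusted p = 0.00103), rose from null to rescue (1.88 ± 0.11, limma adjusted p = 4.85e-04) and was higher in the rescue line than in wild type (0.53 ± 0.11, limma adjusted p = 0.0271). The last call was lost without either wild-type or either rescue array (adjusted p 0.0828 to 0.133).

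Sbsn and Dmkn encode the secreted epidermal proteins suprabasin and dermokine and are adjacent on chromosome 7. The Sbsn promoter is shown because Sbsn rose in the null line and fell from null to rescue. Its window is chr7:30751221-30751520 on the plus strand of GRCm38.p6 (RefSeq), with TGANTCA in capitals.
Sbsn promoter: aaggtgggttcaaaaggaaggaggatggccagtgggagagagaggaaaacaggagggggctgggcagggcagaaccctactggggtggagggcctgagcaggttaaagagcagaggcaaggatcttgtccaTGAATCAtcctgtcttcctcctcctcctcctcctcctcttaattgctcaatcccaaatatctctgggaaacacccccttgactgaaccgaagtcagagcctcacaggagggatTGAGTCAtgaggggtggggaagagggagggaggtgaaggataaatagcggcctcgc
TGANTCA occurred as TGAATCA 119 bases and as TGAGTCA 6 bases before the start, and TATAAA was not among the letters of the window. Sbsn read 339.6 and 442 in wild type, 666 and 689 in the null line, and 241 and 243 in the rescue line. The null line was highest and the rescue line lowest, without overlap. Sbsn rose in the null line (0.78 ± 0.13, limma adjusted p = 0.0117), fell 2.80-fold from null to rescue (-1.42 ± 0.13, limma adjusted p = 0.00197) and was 1.61-fold lower in the rescue line than in wild type (-0.64 ± 0.13, limma adjusted p = 0.0225). The rise was lost without either null array (adjusted p = 0.0637 and 0.0691), and the difference of rescue from wild type without the second wild-type array or either rescue array (0.0724 to 0.0954).

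Dmkn read 1710 and 2024 in wild type, 1900 and 1904 in the null line, and 1245 and 1401 in the rescue line. The null arrays lay between the 2 wild-type arrays, with a difference of 0.03 (95% interval -0.22 to 0.28). Dmkn fell 1.44-fold from null to rescue (-0.52 ± 0.10, limma adjusted p = 0.0228) and was 1.41-fold lower in the rescue line than in wild type (-0.49 ± 0.10, limma adjusted p = 0.028). The fall was lost without either null array or the first rescue array (adjusted p 0.1 to 0.102), and the difference from wild type without any one array other than the first wild-type array (0.0504 to 0.137).

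Cdsn, which encodes corneodesmosin, the adhesive protein that kallikreins cut, fell with them in the null line. It read 473 and 534 in wild type, 187 and 197 in the null line, and 195 and 262 in the rescue line. Wild type lay above the other lines, and the first rescue array lay within the null range. Cdsn was 2.62-fold lower in the null line (-1.32 ± 0.14, limma adjusted p = 0.00304) and 2.20-fold lower in the rescue line than in wild type (-1.10 ± 0.14, limma adjusted p = 0.0063), the latter call being lost without the second wild-type array (0.0546). Calml3, a calmodulin-like epithelial gene, lay between 316 and 412, and its null difference was 0.04 (95% interval -0.32 to 0.39).

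Of the 31 members, 7 lie in the epidermal differentiation complex and 4 in the kallikrein cluster, which were examined after their values were seen, using RefSeq gene order. In the complex on chromosome 3, from S100a1 to S100a10, 40 genes were measured. Of these 40, 19 fell and 1 rose in the null line, beside 6.84% and 8.49% of all clusters. In that comparison 0 of the 10 measured genes flanking the complex were called by limma (1 at an unadjusted p under 0.05). In the rescue line against its parent 4 of the 40 rose and 2 fell, beside 9.75% and 5.62% of all clusters. Against wild type 1 was higher and 13 were lower in the rescue line, beside 10.4% and 5.05%. In these 2 comparisons the 10 flanking genes again gave 0 limma calls (2 and 0 at an unadjusted p under 0.05). Whether the flanks differ from all clusters was not tested. The calls were not uniform along the complex: Sprr3 rose in the null line between Sprr1b and Sprr1a, which fell. In the kallikrein cluster on chromosome 7, Klk9, Klk8 and Klk7 are consecutive measured genes, and no other of its 7 measured genes was called in any comparison. Of the 10 genes flanking it, 1 was called, 2410002F23Rik, higher in the rescue line than in wild type (0.52, limma adjusted p = 0.0378).

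**Figure D3:**
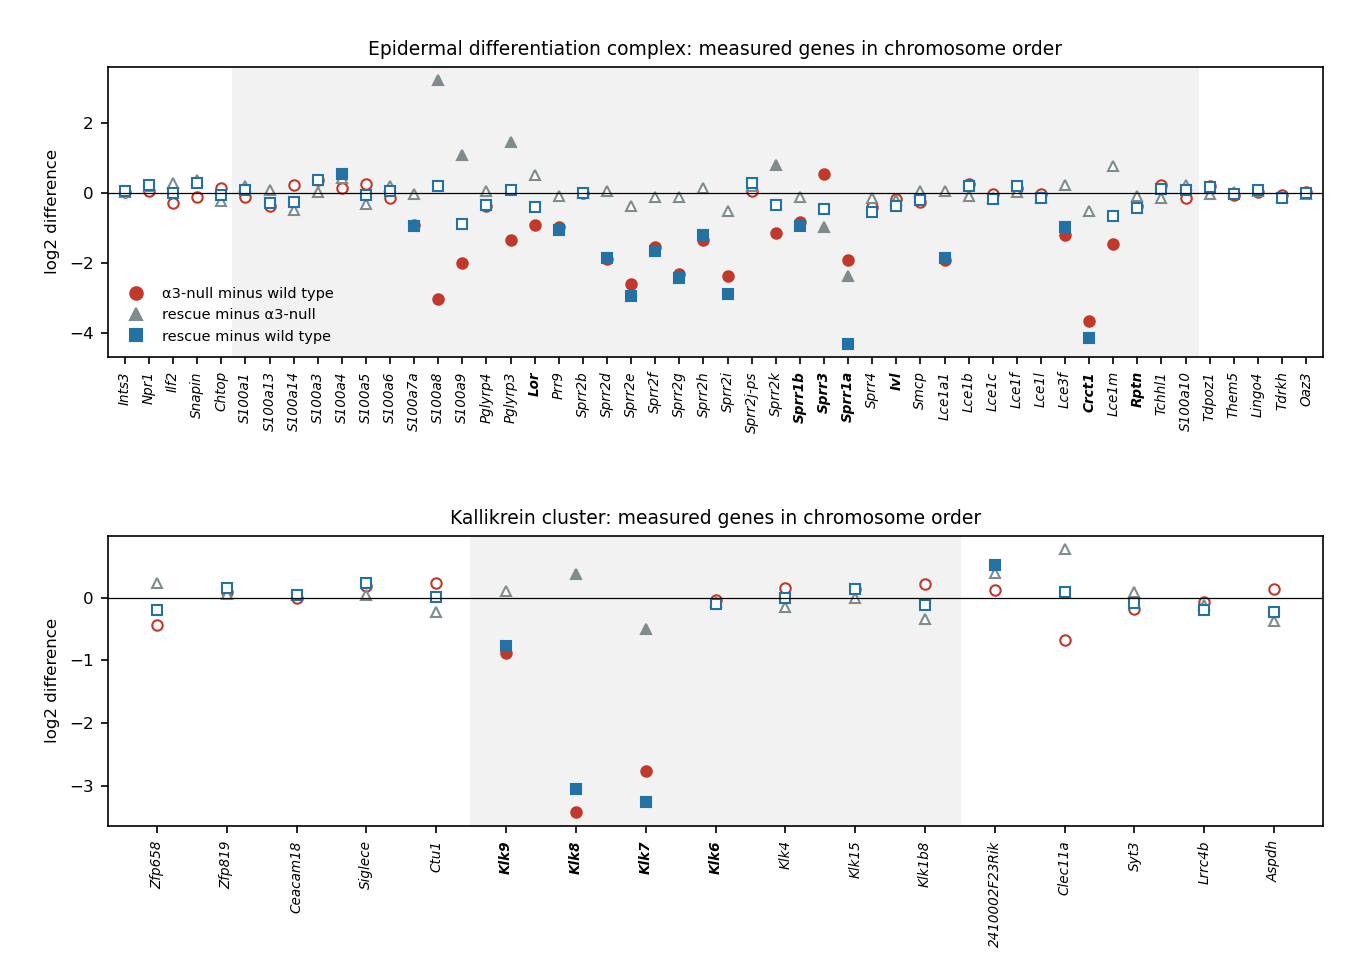
Log2 difference of each measured gene in the epidermal differentiation complex (top) and the kallikrein cluster (bottom) in chromosome order, each with 5 measured genes on both sides (unshaded); members are in bold and filled symbols passed the test. In the null line (circles) 19 of 40 genes of the complex and Klk9, Klk8 and Klk7 were lower, while S100a8, S100a9, Pglyrp3 and Sprr2k rose from null to rescue (triangles). Over all clusters, 6.84% were lower in the null line and 9.75% rose from null to rescue.

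Other genes of the cornification pathway were counted over whole lists. Of 10 measured Sprr2 and Sprr4 genes of 13 listed, 7 fell and 0 rose in the null line, and 6 were lower in the rescue line than in wild type. These calls were 70% and 60% of the 10, beside 15.3% and 15.4% of all clusters. The 3 not called in the null line were Sprr2b, with no signal on any array (at most 1.96e-04), the pseudogene Sprr2j-ps, and Sprr4. Sprr4 was dim, at 13.5 to 37.8. Sprr2g averaged 844 ± 138 in wild type, 154 ± 0.737 in the null line and 142 ± 13.1 in the rescue line (null minus wild type -2.32, limma adjusted p = 2.18e-04). Sprr2d, Sprr2e and Sprr2i fell by 1.90, 2.59 and 2.36 on the log2 scale in the null line. Sprr2k was the only one of these called from null to rescue, and it rose, from 609 ± 81.2 to 1071 ± 163 (0.80, limma adjusted p = 0.0154). Of 7 measured late cornified envelope genes of 22 listed, 3 fell in the null line: Lce1a1 (-1.91), Lce1m (-1.44) and Lce3f (-1.21). That is 42.9% of the 7, beside 15.3% of all clusters. These 3 were dim. Lce1m and Lce3f lay below the dim reference on all 6 arrays, with wild-type means of 33.2 and 50.9. Lce1a1 exceeded it only in wild type (63.0 and 72.2) and read 6.5 and 6.0 in the null line. The Sprr2 and Lce families are close copies, so single-gene values are uncertain.

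The S100 genes of the complex and the other proteases and inhibitors included genes that fell in the null line and rose from null to rescue. S100a8, an antimicrobial calcium-binding protein gene, averaged 785 ± 149 in wild type, 81.5 ± 8.08 in the null line and 895 ± 93.9 in the rescue line. It fell in the null line (-3.03, limma adjusted p = 1.41e-04) and rose from null to rescue (3.22, limma adjusted p = 2.31e-04). Its partner S100a9 fell by 1.99 and rose by 1.09 on the same scale (limma adjusted p = 0.00559 and 0.0402). Of 11 measured S100 genes of 13 listed, 3 fell in the null line and 2 rose from null to rescue. These calls were 27.3% and 18.2% of the 11, beside 15.3% and 15.4% of all clusters. Of 20 measured other proteases and inhibitors, 5 fell and 2 rose in the null line, and 6 rose and 2 fell from null to rescue. In the rescue line against wild type, 6 were higher and 2 lower. The shares called were 35%, 40% and 40% of the 20 in the 3 comparisons, beside 15.3%, 15.4% and 15.4% of all clusters. Tmprss4, a membrane serine protease gene, was higher in the null line (1.77, limma adjusted p = 6.89e-04) and in the rescue line (1.62, limma adjusted p = 0.00102) than in wild type. Prss8, another membrane serine protease, needed for the skin barrier in mice, was lower in the null line (-1.18, limma adjusted p = 7.67e-04) and in the rescue line (-1.22, limma adjusted p = 7.13e-04) than in wild type. Slpi, a secreted inhibitor of serine proteases, fell by 1.35 in the null line and rose by 2.17 from null to rescue.

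Of 21 other barrier lipid genes, 2 fell and 1 rose in the null line, 14.3% beside 15.3% of all clusters. Against the null line the rescue line had 5 of them higher and 1 lower, and against wild type 6 higher and 2 lower. These calls were 28.6% and 38.1% of the 21, beside 15.4% of all clusters in each comparison. Ugcg (0.66) and Dgat2 (0.73), which encode a glucosylceramide synthase and a triglyceride synthesis enzyme, rose from null to rescue (limma adjusted p = 0.00839 and 0.00872). Sdr9c7, a dehydrogenase gene of acylceramide processing, averaged 285 ± 69.4 in wild type, 36.7 ± 2.39 in the null line and 34.3 ± 6.64 in the rescue line, and was lower in both than in wild type (-2.50 and -2.57, limma adjusted p = 7.35e-04 and 6.93e-04). Of 4 measured early spinous genes, Dsc1 alone was called in the null line (-1.28, limma adjusted p = 0.00632). That is 25% of the 4, beside 15.3% of all clusters. The suprabasal keratin genes Krt1 and Krt10 differed by 0.11 and -0.04 (limma adjusted p = 0.603 and 0.851). Of 19 measured transcription factors of epidermal differentiation, 3 rose and 5 fell in the null line. Tfap2c fell by 2.02 (limma adjusted p = 1.09e-04) and Gata3 by 0.97 (0.00446), while Klf4, a barrier regulator, rose by 0.66 (0.0026). Of the 19, 5 fell and 2 rose from null to rescue. Those that fell included Ovol1 (-0.74), Prdm1 (-0.77), Trp63 (-0.52) and Klf4 (-0.41), and the 2 that rose were Cebpb (0.47) and Tfap2c (0.43). In the rescue line against wild type, 7 were lower and 1 was higher. The shares called were 42.1%, 36.8% and 42.1% of the 19 in the 3 comparisons, beside 15.3%, 15.4% and 15.4% of all clusters.

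Markers of other states also differed between the lines. Of the 10 basal markers, 6 rose in the null line and 5 fell from null to rescue. Against wild type, 1 was higher and 0 were lower in the rescue line. The shares called were 60%, 50% and 10% of the list, beside 15.3%, 15.4% and 15.4% of all clusters. Of 5 simple epithelium genes, Krt19 alone was called in the null line, from 5101 ± 489 to 869 ± 157 (limma adjusted p = 2.08e-04), and 3 of the 5 rose from null to rescue. In the rescue line against wild type, 2 were higher and 0 lower. The shares called were 20%, 60% and 40% in the 3 comparisons, beside the same shares of all clusters. The 5 sum to 21219 to 22101 in wild type, 18551 to 19180 in the null line and 24670 to 25222 in the rescue line. Markers of fibroblasts (9 genes), immune cells (7), endothelium (6) and melanocytes (6) gave 0 limma calls in every comparison, with at most 2 of a list at an unadjusted p under 0.05. The part of these states in the members' differences was not tested. In bulk RNA, fewer differentiating cells and less RNA per cell cannot be told apart.

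**Figure D4:**
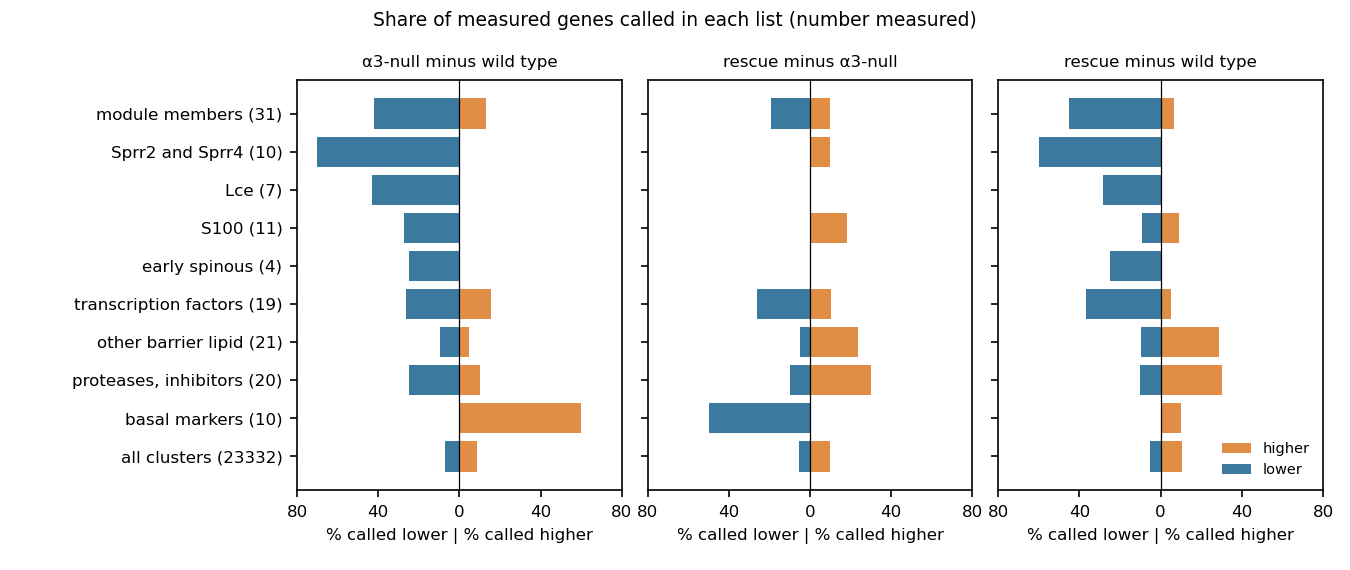
Percent of measured genes called higher (orange, right of 0) and lower (blue, left of 0) in each list and over all 23332 clusters, for the 3 comparisons; the number measured is in parentheses. In the null line 13 of 31 members and 7 of 10 Sprr2 and Sprr4 genes were lower, while 6 of 10 basal markers were higher.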

How the data were processed

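RNA of 3 keratinocyte lines was hybridised to Affymetrix Mouse Exon 1.0 ST arrays, 2 per line. The deposited values are PLIER intensities per core transcript cluster made by the authors with Affymetrix Expression Console, per the labels. The series text instead credits Affymetrix's Exon Array Computational Tool. The background correction, the normalization and the build behind the annotation were not stated in any source, and the number of arrays limits precision. Intensities below 16 made up 10.1 to 10.7% of each array.

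From the deposited intensity values, log2(intensity + 16) was fitted with limma 3.58.1 in R 4.3.3, with 1 mean per line over all 6 arrays and an intensity trend (3 residual and 3 prior degrees of freedom), and p-values were Benjamini-Hochberg adjusted over 23332 clusters, with a threshold of 0.05. The fit was also run on simulated data with planted differences, as a check of the code only, and no result here rests on it. Genes were named from the platform annotation: 14996 clusters had 1 symbol, 1019 had several and are not named, and 7317 had none; 14941 matched RefSeq. All 31 measured members are accounted for. From each other list, up to 4 called genes with the lowest adjusted p per comparison could be named, and others were chosen after their values were seen. The members and lists were chosen with earlier results of these data known. Replicate numbers recur across lines, but no label says that same-numbered arrays were paired, and they were not treated as pairs. Deviations of same-numbered arrays correlated at -0.02 to 0.05 over all clusters. That shows no strong shared deviation and cannot exclude a weaker one. Alternatives changed the pseudocount, scaling, filters, fit and arrays.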

Additional observations from a re-analysis of the deposited data

How the results depend on the processing

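Alternatives were other pseudocounts, arrays scaled by quantiles or centred on their median, dim clusters left out, a fit without the intensity trend, a fit of only the 4 arrays compared, clusters with 1 symbol, a minimum log2 difference of 1, a replicate block and removal of each array. No member call reversed direction in any of them. Of the calls, 11 of 17 in null against wild type, 4 of 9 from null to rescue (Sprr1a, Asprv1, Sbsn and Aqp3) and 7 of 16 in rescue against wild type held in every alternative in which the gene was tested, the minimum difference aside. From null to rescue, the 3 members higher became 1 with quantile normalization, median centring, no intensity trend or only 4 arrays. They became 1 with the minimum difference and 5 over clusters with 1 symbol. The 6 lower became 10 with centring or over clusters with 1 symbol and 3 with the minimum difference. Over all clusters, 2274 higher and 1311 lower became 1917 and 1922 with quantile normalization and 1565 and 2258 with centring. They became 1550 and 727 with no trend, 1576 and 767 with only 4 arrays, and 412 and 132 with the minimum difference. Of the 14996 clusters with 1 symbol, 2386 were higher and 1427 lower. In null against wild type, the 4 higher became 2 with no trend and 1 with the minimum difference. The 1982 higher of all clusters became 1191 and 206 there. In rescue against wild type, the 2 higher became 1 with no trend or with clusters at or above the median cluster. With the minimum difference the 2 higher became 0 and the 14 lower became 7. Over all clusters, 2420 higher became 1564 with no trend, and 2767 of the 11666 at or above the median cluster were higher. With the minimum difference 421 of all clusters were higher, and the 1179 lower became 319. Median centring moved the median of all clusters by -0.12 from null to rescue. The share of all calls that were higher, 55.4%, 63.4% and 67.2% in the 3 comparisons, became 53.2%, 49.9% and 53.5% with quantile normalization and 68.1%, 40.9% and 60.0% with centring. Without single arrays, the counts higher and lower ranged from 1 to 4 and 10 to 14 in null against wild type, 1 to 2 and 3 to 5 from null to rescue, and 0 to 2 and 8 to 12 in rescue against wild type. The replicate block gave 4 and 13, 2 and 5, and 2 and 14 members higher and lower, though no label says that the numbers pair the arrays. Dim signal limits Rptn, Casp14 and Klk9 in all lines. The cause of these shifts was not tested.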
